A study of Drosophila melanogaster with 12 samples.

Results

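The genes described here drive the cell cycle, DNA replication and mitosis of Drosophila melanogaster. They were taken from a list of 46 such genes, set by function, which was drawn up with earlier results of these data known. Of these, 44 were matched by FlyBase identifier to the 15682 genes of the count tables, while Orc1 and Mcm3 were not analysed here. RNA was sequenced from 4 groups of 3 samples: amos adult antennae, wild-type adult antennae, amos antennal discs and wild-type antennal discs. The mutant carried the amos3 allele and the wild-type was the w1118 strain, both kept at 22°C with no treatment named. Males and females were mixed, and adult antennae came from flies at most 4 hours old. Antennal discs, the larval tissue from which the antenna grows, came from third-instar larvae and were cut by hand from the eye disc, with 50 discs in a sample. amos encodes a proneural transcription factor that sets aside the precursors of the sensilla that house odorant receptor neurons. The mutation was carried by the whole animal.

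Dividing cells pass through a growth phase (G1), a phase of DNA synthesis (S), a further gap (G2) and mitosis (M), and cyclins bound to their kinases trigger each step. Before S phase, the origin recognition complex and the Mcm helicase are loaded onto DNA, a step called licensing. Mitosis needs the spindle, the kinetochores that hold chromosomes to it, and the anaphase-promoting complex (APC/C), which ends mitosis by marking cyclins and securin for destruction. In the fly, disc cells divide through larval life. In the pupa, sensory organ precursors complete a few further divisions and most cells of the emerged antenna have left the cycle.

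The amos adult libraries held 36396746 to 50252338 reads on genes, against 25150198 to 25721392 in wild-type adult libraries. The disc libraries held 39247300 to 43984887 reads in amos and 26796503 to 27661261 in wild-type. Levels are given as CPM, the reads of a gene per 1000000 reads on all genes of that library. A level of 3 reads corresponded to 0.0597 to 0.119 CPM, a floor that covers counting error only. The targeted gene gave no check of the labels: amos itself had 0, 0 and 0 reads in amos adults against 2, 1 and 1 in wild-type adults, and 0, 0 and 3 in amos discs against 2, 0 and 0 in wild-type discs. Orco, the co-receptor of odorant receptors, was at 57.5 to 115 CPM in amos adults and at 2769 to 3104 CPM in wild-type adults. In discs it had 1, 2 and 1 reads in amos and 38, 58 and 63 reads in wild-type, and the source of these reads was not tested. The 8 markers of the antennal disc summed to 1433 to 1558 CPM in amos discs and 1246 to 1532 CPM in wild-type discs. The largest part was hth, at 785 to 915 CPM in amos discs and 585 to 905 CPM in wild-type discs. The sums were also high in adults, at 924 to 1325 CPM in amos and 1071 to 1103 CPM in wild-type. For adult antennae the study's methods give 3 biological replicates of each genotype, without saying what separated them. The labels only number the samples, so p-values measure only the spread between these samples. Wild-type disc 5 stood farthest from the mean of the others of its group, with a root mean square log2 distance of 0.84 over genes, against 0.50 to 0.64 in the other 5 disc libraries. Its 4 muscle markers summed to 802 CPM, against 50.4 to 65.1 CPM in amos discs and 93.7 to 113 CPM in the other wild-type discs. Its antennal disc markers lz, dan and danr were at 1.57, 28.2 and 47.0 CPM. The other 5 discs had 8.97 to 16.6, 63.1 to 77.5 and 84.0 to 104 CPM. The antennal disc markers ss, hth and Dll were not lowest in that library. In wild-type disc 2 the 4 fat body markers summed to 3686 CPM, where the other 5 discs had 44.7 to 368 CPM. The counts and medians over the listed genes that rest on these libraries are also given without them.

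The first comparison set adult antennae against larval antennal discs. Nearly every gene was lower in adults, in both genotypes. The 44 genes together summed to 448 ± 9.11 CPM in amos adults and 391 ± 5.72 CPM in wild-type adults, against 5802 ± 266 CPM in amos discs and 7431 ± 778 CPM in wild-type discs (SD, n = 3 each). In the amos comparison, 43 of 44 genes were lower and 1 was higher by the quasi-likelihood test of edgeR at a Benjamini-Hochberg adjusted p of 0.05, when 41.8% of all 9985 genes tested were lower and 43.8% higher. In wild-type, again 43 were lower and 1 higher, with 43.4% of 9770 genes lower and 43.2% higher. The median log2 fold change over the 44 genes was -4.30 in amos and -5.50 in wild-type, while the medians over all genes tested were 0.05 and -0.00. All 3 adult samples lay below all 3 discs for 43 genes in amos and for 43 in wild-type, against 48.8% and 49.8% of all genes. Without wild-type disc 2 or 5, the wild-type counts were again 43 lower and 1 higher, with medians of -5.59 and -5.30. Changes over 2-fold were called lower for 41 and 42 genes, where the shares over all genes were 28.5% and 29.7%. In bulk tissue, fewer dividing cells cannot be told apart from less of these RNAs per cell.

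**Figure D1:**
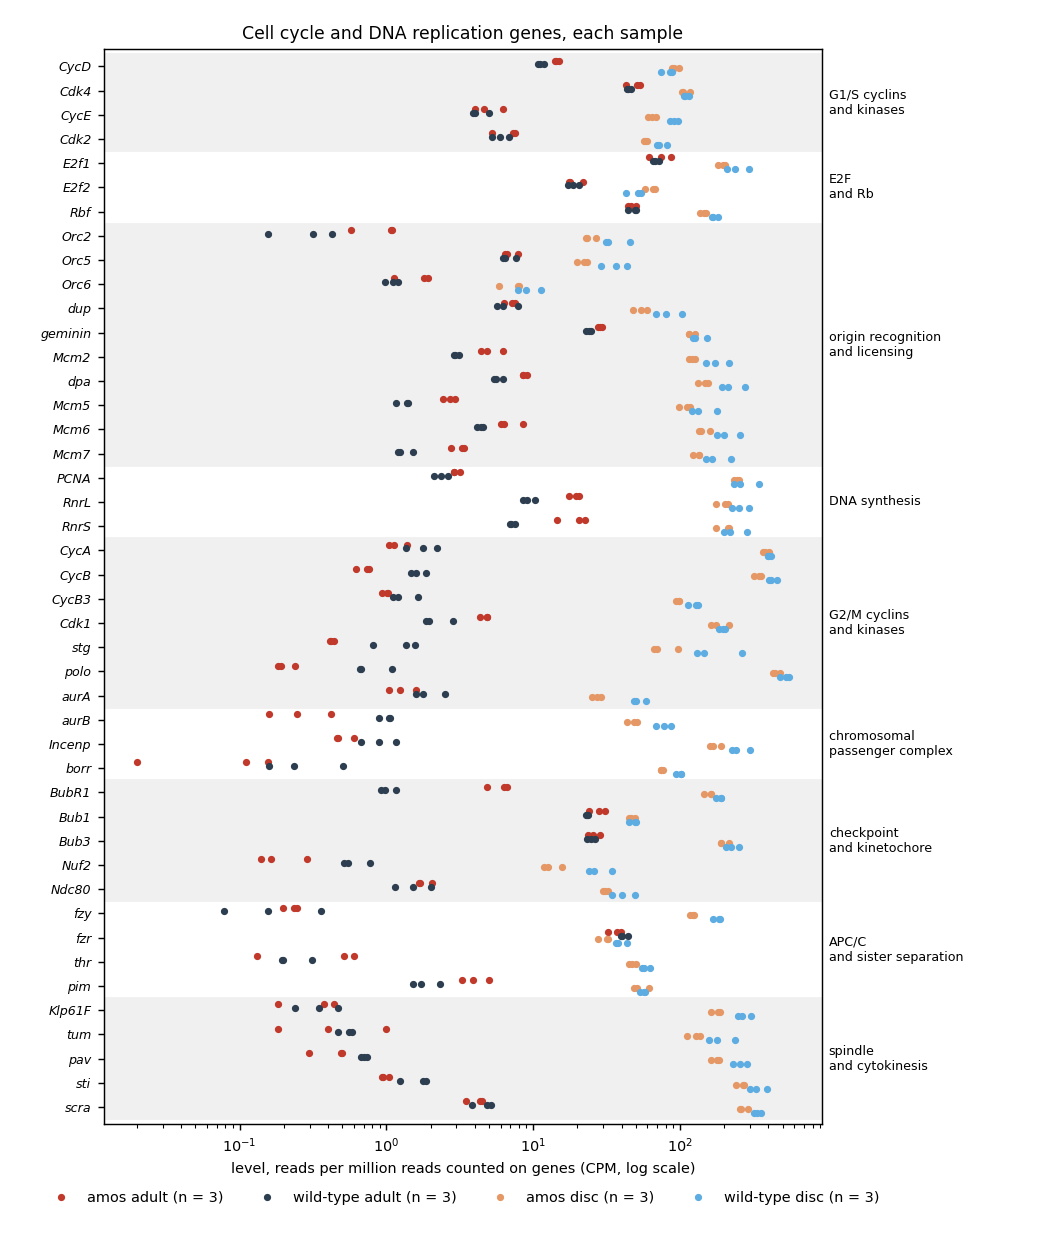
Level of each of the 44 genes in each of the 12 samples, in CPM on a log scale, with genes in rows by role and 1 point per sample. Disc samples lie to the right of adult samples in every row but fzr, and the gap is widest for mitotic genes such as polo, fzy and Klp61F.

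The changes were largest for the mitotic genes fzy, Klp61F and polo in wild-type, and for polo, borr and fzy in amos. polo (FBgn0003124), the kinase that drives entry into mitosis and the exit from it, was at 0.192, 0.239 and 0.183 CPM in amos adults, against 482, 443 and 429 CPM in amos discs. In wild-type it was at 1.09, 0.661 and 0.676 CPM in adults, against 523, 481 and 552 CPM in discs. The adult level was close to the floor of 3 reads in amos and above it in wild-type, and no adult sample came near a disc sample. The log2 fold change was -10.73 (SE 0.14) in amos and -9.05 (SE 0.20) in wild-type, with edgeR adjusted p of 9.43e-09 and 1.71e-07. fzy, the Cdc20 activator of the APC/C, was at 0.247, 0.199 and 0.236 CPM in amos adults and 123, 125 and 116 CPM in amos discs. In wild-type it was at 0.156, 0.0778 and 0.358 CPM in adults and 184, 168 and 187 CPM in discs, a log2 fold change of -9.54 (SE 0.28). Klp61F, the motor that pushes spindle poles apart, changed by -8.70 (SE 0.21) on the log2 scale in amos and -9.31 (SE 0.20) in wild-type.

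The rest of the mitotic groups moved the same way. Among the G2/M cyclins and kinases, the median log2 fold change was -7.18 in amos and -6.90 in wild-type, over CycA, CycB, CycB3, Cdk1, stg, polo and aurA. stg encodes the Cdc25 phosphatase whose transcription times mitosis in the fly, and it changed by -7.18 (SE 0.22) in amos and -6.90 (SE 0.41) in wild-type. The chromosomal passenger complex corrects wrong attachments of chromosomes. Its 3 listed genes aurB, Incenp and borr had medians of -8.07 in amos and -7.85 in wild-type. Of the 5 genes of the spindle and cytokinesis, tum and pav form the centralspindlin complex of the midzone, sti is the citron kinase and scra is anillin. Their medians, with Klp61F, were -7.72 in amos and -8.19 in wild-type. thr, the separase that cuts cohesin, changed by -6.47 (SE 0.34) in amos and -7.66 (SE 0.16) in wild-type. Its inhibitor pim, the securin, changed less, by -3.40 (SE 0.17) in amos and -4.64 (SE 0.17) in wild-type.

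All 10 licensing genes and all 3 of DNA synthesis were called lower as well. PCNA, the sliding clamp of DNA polymerases, was at 3.16, 2.91 and 2.91 CPM in amos adults, against 253, 245 and 232 CPM in amos discs. In wild-type it was at 2.10, 2.64 and 2.35 CPM in adults, against 256, 232 and 345 CPM in discs. No adult sample overlapped with a disc sample, and the log2 fold changes were -6.01 (SE 0.10) and -6.61 (SE 0.21). The 10 genes of origin recognition and licensing had medians of -3.89 in amos and -5.19 in wild-type. They comprise Orc2, Orc5 and Orc6 of the origin recognition complex, dup (the Cdt1 loader), geminin (the inhibitor of dup) and the helicase subunits Mcm2, dpa (Mcm4), Mcm5, Mcm6 and Mcm7. The range within this group was wide in wild-type, between -6.81 for Mcm7 and -2.16 for Orc5. RnrL and RnrS, the large and small subunits of the ribonucleotide reductase that makes deoxynucleotides, changed by -3.03 (SE 0.10) and -3.06 (SE 0.17) in amos, and by -4.53 (SE 0.14) and -4.76 (SE 0.16) in wild-type.

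**Figure D2:**
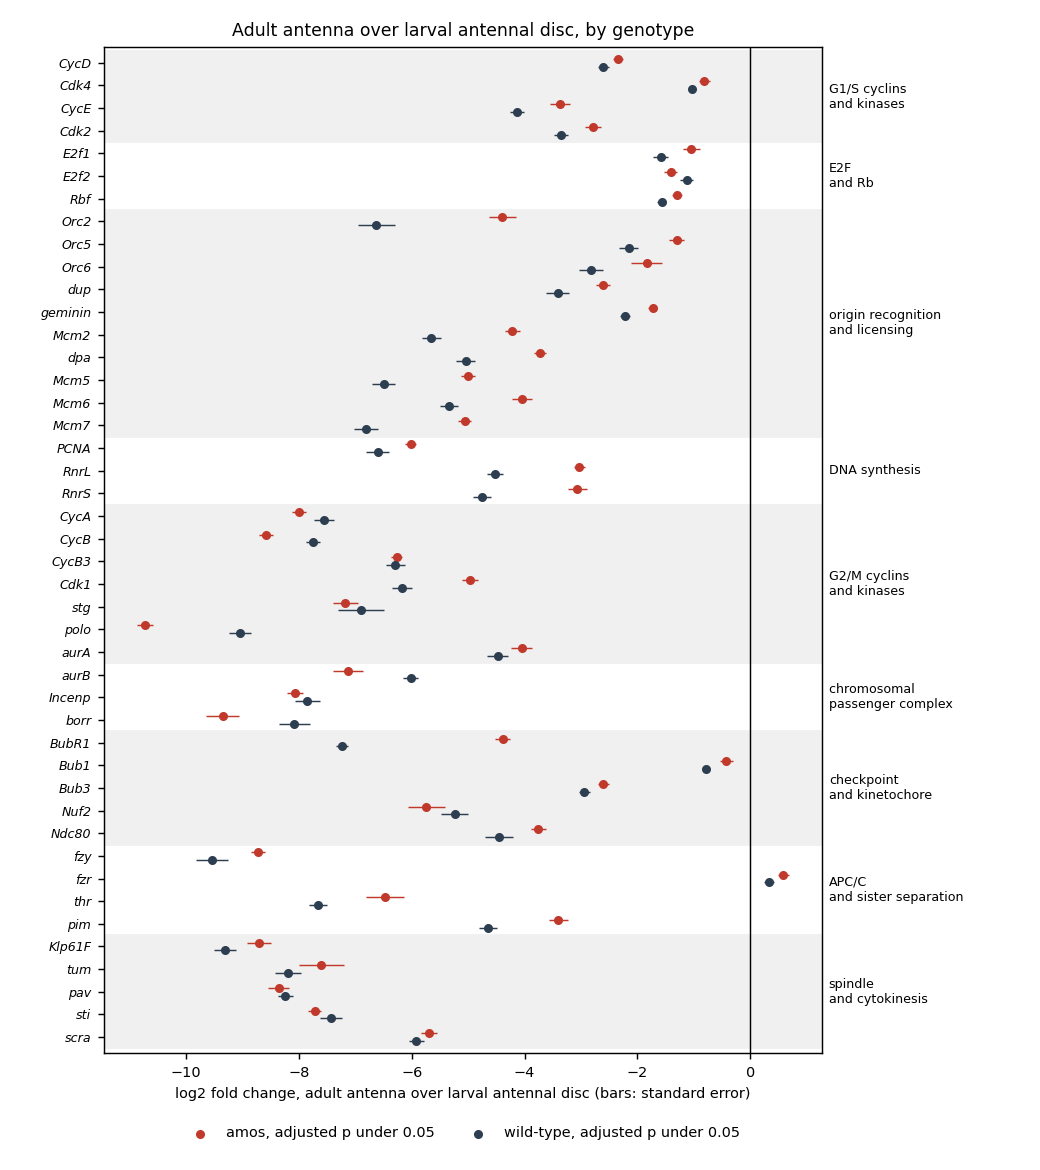
Log2 fold change of each gene in adult antennae over antennal discs, with its standard error, in amos and in wild-type (3 samples in each group). Every gene but fzr lies left of 0 in both genotypes, with Bub1 and Cdk4 nearest to it and polo in amos farthest from it at -10.73.

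The 3 genes of E2F and Rb, Cdk4 and Bub1 changed by smaller steps. E2f1 (the activating E2F), E2f2 (the repressing E2F) and Rbf (the retinoblastoma protein that holds E2F in check) had log2 fold changes of -1.04, -1.41 and -1.29 in amos, and -1.59, -1.13 and -1.57 in wild-type. Cdk4, the partner of Cyclin D, was at 50.6, 53.5 and 43.1 CPM in amos adults, against 116, 106 and 104 CPM in amos discs. In wild-type it was at 43.4, 46.3 and 44.4 CPM in adults and 115, 106 and 108 CPM in discs, so that adults kept 45.2% of the mean disc CPM in amos and 40.7% in wild-type. CycD itself kept 15.6% and 13.7%, and CycE and Cdk2, which fire S phase, had log2 fold changes of -3.37 and -2.79 in amos and -4.14 and -3.35 in wild-type. Bub1, a kinase of the spindle checkpoint, changed least among the genes called lower, by -0.42 (SE 0.12, edgeR adjusted p = 0.0108) in amos and -0.78 (SE 0.07, edgeR adjusted p = 6.51e-05) in wild-type. When only genes with 10 or more counts in each sample were kept, Bub1 in amos was no longer called, with an edgeR adjusted p of 0.0819. Bub3, its partner in the checkpoint, changed by -2.60 in amos and -2.94 in wild-type, and Nuf2 and Ndc80 of the outer kinetochore by -5.75 and -3.76 in amos and by -5.24 and -4.45 in wild-type.

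The 1 exception was fzr (FBgn0262699), the Cdh1 activator that keeps the APC/C working in G1 and in cells that have left the cycle. It was at 39.8, 37.5 and 32.4 CPM in amos adults, against 32.1, 32.1 and 27.7 CPM in amos discs. In wild-type it was at 39.6, 40.4 and 44.5 CPM in adults, against 36.7, 38.0 and 43.9 CPM in discs. The amos groups did not overlap, narrowly, while the wild-type groups did. The log2 fold change was 0.59 (SE 0.10, edgeR adjusted p = 0.000899) in amos and 0.34 (SE 0.09, edgeR adjusted p = 0.0122) in wild-type. The call depended on the scaling. With scaling by total counts, which moved the median of all genes to -0.28 in amos and -0.27 in wild-type, fzr was no longer called (edgeR adjusted p = 0.0644 and 0.497).

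To compare levels between genes, reads were divided by the summed exon length, as FPKM. PCNA had the highest FPKM of the 44 genes in amos discs and in wild-type discs, with 228 and 260. geminin had the highest FPKM in amos adults, with 26.7, and in wild-type adults, with 22.5, and Cdk4 followed. The gene ranked first thus differed in role, with a clamp of the replication fork first in discs and a brake on licensing first in adults. geminin itself was nonetheless higher in discs than in adults, at 112 FPKM in amos discs and 126 FPKM in wild-type discs.

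Genes of the same pathways outside the list of 46 gave similar counts, where 41.8% of all genes tested were lower in amos and 43.4% in wild-type. Of 31 further replication genes tested, 30 were lower and 1 was higher in adults in each genotype. The higher one was Cdc7, a kinase that activates origins, with a log2 fold change of 0.57 in amos and 1.26 in wild-type. Of 44 further mitotic genes, 43 were lower in amos and 44 in wild-type. Of 9 centriole duplication genes, 8 were lower in each genotype, and cnn, which builds the material around the centriole, was higher in amos by 0.66 on the log2 scale. Among 15 inhibitors, DREAM complex subunits and damage checkpoint genes, 14 were lower in each genotype, with a median of only -1.67 in amos and -1.73 in wild-type.

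The second comparison set amos adult antennae against wild-type adult antennae. The RNA-seq methods name no shared background for these strains. In every genotype comparison, loss of amos and strain background therefore cannot be told apart. Of the genes called higher in amos adults, 7 belong to origin recognition and licensing and 2 to nucleotide supply, and the largest change was that of the checkpoint gene BubR1. Of the genes called lower, polo, aurB, stg and CycB drive mitosis. By edgeR, 13 of 41 genes tested were higher (31.7%), against 22.7% of all 9724 genes, and 6 were lower (14.6%), against 24.4%. The number of calls alone thus does not set the list apart from other genes. The median log2 fold change was 0.10, against -0.00 over all genes. Beyond 2-fold, 8 genes were higher and 5 lower, where the shares over all genes were 8.37% and 8.38%. borr, fzy and thr were too low in adults to be tested. All 3 amos samples lay above all 3 wild-type samples for 15 genes and below them for 11, against 30% and 29.4% of all genes.

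The largest of the 41 differences belonged to BubR1 (FBgn0263855), which holds back anaphase until all chromosomes are attached. It was at 6.65, 6.37 and 4.85 CPM in amos adults, against 0.973, 1.17 and 0.915 CPM in wild-type adults. The groups were far apart, and the log2 fold change was 2.52 (SE 0.19, edgeR adjusted p = 3.45e-05). Bub1 and Bub3, listed with it as checkpoint genes, were not called. Bub1 was at 24.2, 28.0 and 30.8 CPM in amos adults and 23.7, 23.1 and 23.2 CPM in wild-type adults, a difference of 0.23 (SE 0.11, edgeR adjusted p = 0.13). Bub3 differed by 0.05 (SE 0.08, edgeR adjusted p = 0.671). In both groups of discs BubR1 was far higher than in either group of adults, at 162, 162 and 146 CPM in amos and 191, 176 and 190 CPM in wild-type.

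Of the 10 licensing genes, 7 were called higher in amos adults and all 10 had a log2 fold change above 0. Mcm7 was at 3.38, 2.75 and 3.25 CPM in amos adults and 1.25, 1.21 and 1.51 CPM in wild-type adults, with no overlap and a log2 fold change of 1.21 (SE 0.20, edgeR adjusted p = 0.00187). A non-coding antisense RNA, asRNA:CR45871, covers 81.7% of the exons of Mcm7 in the annotation, and whether counting used the strand is not given in the sources used here, so reads of the pair may be mixed. The other helicase subunits pointed the same way: the log2 fold changes were 1.00 (SE 0.20) for Mcm5, 0.77 (SE 0.16) for Mcm2, 0.65 (SE 0.18) for Mcm6 and 0.57 (SE 0.11) for dpa. Orc2 was at 1.07, 1.09 and 0.576 CPM in amos adults and 0.156, 0.428 and 0.318 CPM in wild-type adults, a difference of 1.57 (SE 0.43, edgeR adjusted p = 0.0193). geminin was higher by a small step, 0.22 (SE 0.07, edgeR adjusted p = 0.0306). Orc5, Orc6 and dup were not called, with 0.02, 0.53 and 0.07 on the log2 scale.

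RnrL was at 20.4, 19.5 and 17.6 CPM in amos adults, against 9.07, 10.3 and 8.51 CPM in wild-type adults. RnrS was at 22.5, 20.5 and 14.5 CPM in amos adults, against 6.97, 7.11 and 7.48 CPM in wild-type adults. Neither pair of groups overlapped. The log2 fold changes were 1.02 (SE 0.10, edgeR adjusted p = 0.000124) and 1.39 (SE 0.15, edgeR adjusted p = 0.000228). PCNA, from the same step of the cycle, was 0.31 higher (SE 0.17) and did not pass the test (edgeR adjusted p = 0.165). Of the G1 genes, only CycD was called, at 0.33 (SE 0.08, edgeR adjusted p = 0.0122), and E2f1, E2f2 and Rbf lay between -0.05 and 0.10.

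**Figure D3:**
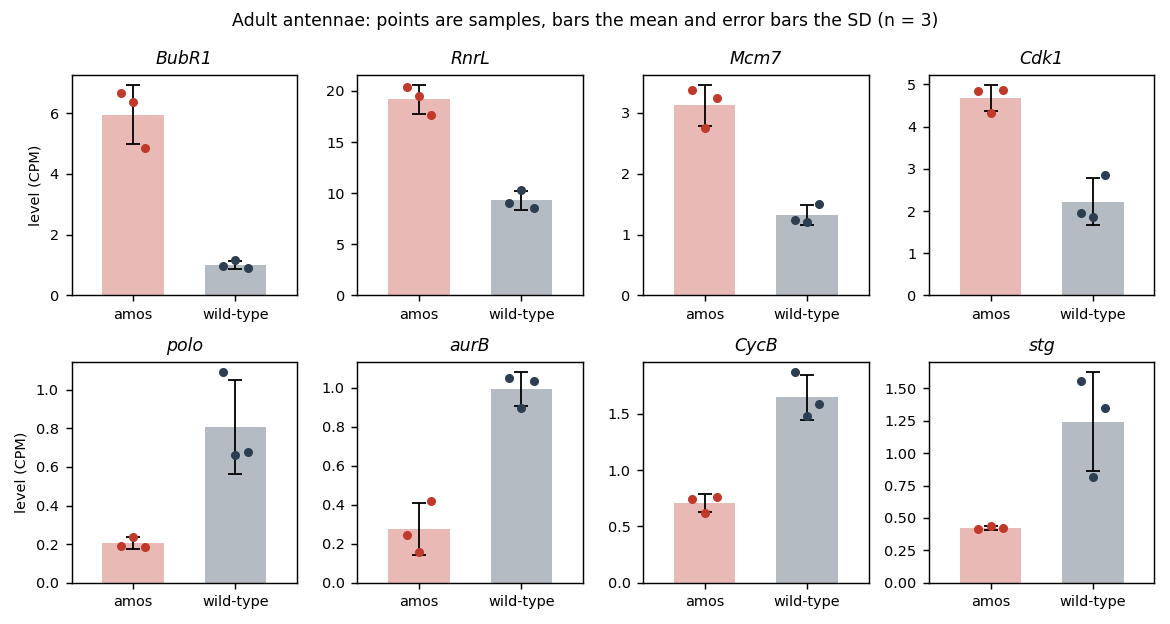
Level in CPM of 8 genes in the 3 amos and the 3 wild-type adult samples, with the mean as a bar and the SD as an error bar. BubR1, RnrL, Mcm7 and Cdk1 in the upper row are higher in every amos sample than in any wild-type sample, and polo, aurB, CycB and stg in the lower row are lower in every amos sample.

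The mitotic genes went both ways. Cdk1, the kinase of mitosis, was at 4.84, 4.32 and 4.87 CPM in amos adults and 1.95, 1.87 and 2.86 CPM in wild-type adults, a log2 fold change of 1.04 (SE 0.21, edgeR adjusted p = 0.00439). Its cyclin CycB was at 0.742, 0.617 and 0.760 CPM in amos adults and 1.87, 1.48 and 1.59 CPM in wild-type adults, a change of -1.25 (SE 0.24, edgeR adjusted p = 0.00385). The kinase and its cyclin therefore differed in opposite directions between the same samples. stg, whose product activates Cdk1, was at 0.412, 0.438 and 0.419 CPM in amos adults and 1.56, 0.816 and 1.35 CPM in wild-type adults, a change of -1.57 (SE 0.32, edgeR adjusted p = 0.00535). CycA, CycB3 and aurA were not called, at -0.62, -0.44 and -0.62.

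polo changed by -1.97 (SE 0.36, edgeR adjusted p = 0.00314) in amos over wild-type adults, on the levels given above. aurB was at 0.247, 0.159 and 0.419 CPM in amos adults and 1.05, 0.894 and 1.03 CPM in wild-type adults, a change of -1.89 (SE 0.40, edgeR adjusted p = 0.00578). Nuf2 was at 0.165, 0.139 and 0.288 CPM in amos adults and 0.545, 0.778 and 0.517 CPM in wild-type adults, a change of -1.66 (SE 0.42, edgeR adjusted p = 0.0131). These levels were low, down to a few reads in a library, and the groups did not overlap for any of the 3 genes. sti changed by -0.77 (SE 0.24, edgeR adjusted p = 0.0344), while Incenp, tum, pav and scra were not called (-0.86, -0.09, -0.75 and -0.19). pim was higher, at 4.97, 3.90 and 3.25 CPM in amos adults and 1.52, 2.33 and 1.71 CPM in wild-type adults, a change of 1.09 (SE 0.23, edgeR adjusted p = 0.00602). Of its target separase, thr, the 3 amos adults held 0.604, 0.517 and 0.131 CPM and the 3 wild-type adults 0.195, 0.311 and 0.199 CPM, which overlapped.

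Of the 19 calls in adults, 13 held under every alternative that did not ask for a 2-fold change. CycD was lost without wild-type adult 5 or 7 (highest edgeR adjusted p = 0.0541), Mcm6 without wild-type adult 5 or 6 (0.0718) and Nuf2 without wild-type adult 6 (0.0631). Orc2 was lost without amos adult 2 or wild-type adult 5 or 7 (highest edgeR adjusted p = 0.0682), and geminin without amos adult 2 or any 1 wild-type adult (0.117). sti was lost in several of these fits, by DESeq2 and with upper quartile scaling (highest adjusted p over the edgeR and DESeq2 fits = 0.132). Markers of other cells moved with genotype in the same adult libraries. The 4 neuron markers summed to 740 to 914 CPM in amos adults and 1444 to 1521 CPM in wild-type adults, and all 4 were called lower. The 5 haemocyte markers summed to 124 to 138 CPM in amos adults and 35.3 to 41.8 CPM in wild-type adults (2 called higher). Pxn made up most of these sums, at 104 to 129 CPM in amos adults and 26.6 to 30.5 CPM in wild-type adults. Pxn and eater were higher in every amos adult than in any wild-type adult. Hml, NimC1 and srp were above every wild-type adult in amos adults 1 and 2 but below every one in amos adult 3. The 4 muscle markers summed to 100.3 to 224 CPM in amos adults and 4.40 to 93.0 CPM in wild-type adults (2 called higher). The 2 germline markers measured were at most 0.0824 CPM in sum in amos adults and 0.239 CPM in wild-type adults. The part of these cell types in the result was not tested.

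Beyond the list of 46, 8 of 30 replication genes tested were higher in amos adults (26.7%) and 2 were lower (6.67%). Of all genes tested, 22.7% were higher and 24.4% lower, so the share of replication genes called higher was close to that of all genes. PolA1, a subunit of DNA polymerase alpha, was higher by 1.66, and Psf2, of the GINS complex, by 0.84. Cdc7 and RfC4 were called lower, at -0.77 and -0.33. Of 40 mitotic genes tested, 14 were higher (35%) and 3 lower (7.5%). Zwilch and Mis12, both of the kinetochore, were higher by 2.73 and 1.90, and Det by 1.50, while asp, a spindle pole protein, changed by -3.13, feo by -0.79 and Nnf1b by -0.68. Of 9 centriole genes, 3 were higher and 2 lower, and of 15 inhibitors and checkpoint genes only dap, the fly p21/p27 homologue, was called, at 0.31.

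The third comparison was made in larval discs, where amos itself had at most 3 reads in any sample. The listed genes were slightly lower in amos discs, and none was called higher. Of 44 genes tested, 17 were lower, against 6.63% of all 8909 genes, and 0 were higher, against 6.57%, by edgeR. At an unadjusted edgeR p under 0.05 the counts were 32 lower and 1 higher, but the share over all genes at that threshold was not counted. Of the 44 log2 fold changes 42 were negative, with a median of -0.36 against -0.00 over all genes. All 3 amos discs lay below all 3 wild-type discs for 31 genes and above them for 2, CycD and E2f2, where the shares over all genes were 22% and 19.3%. Only stg and Nuf2 were called and changed over 2-fold, against 2.74% of all genes that were lower by as much. Without wild-type disc 5 no listed gene passed both criteria, and without wild-type disc 2 only 1 did. DESeq2 called 29 lower and 1 higher, and one fit over all 12 samples called 19 lower and 1 higher. Over all genes, DESeq2 called 1143 of 8909 lower and 1016 higher, and the single fit 1067 of 10319 lower and 993 higher.

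**Figure D4:**
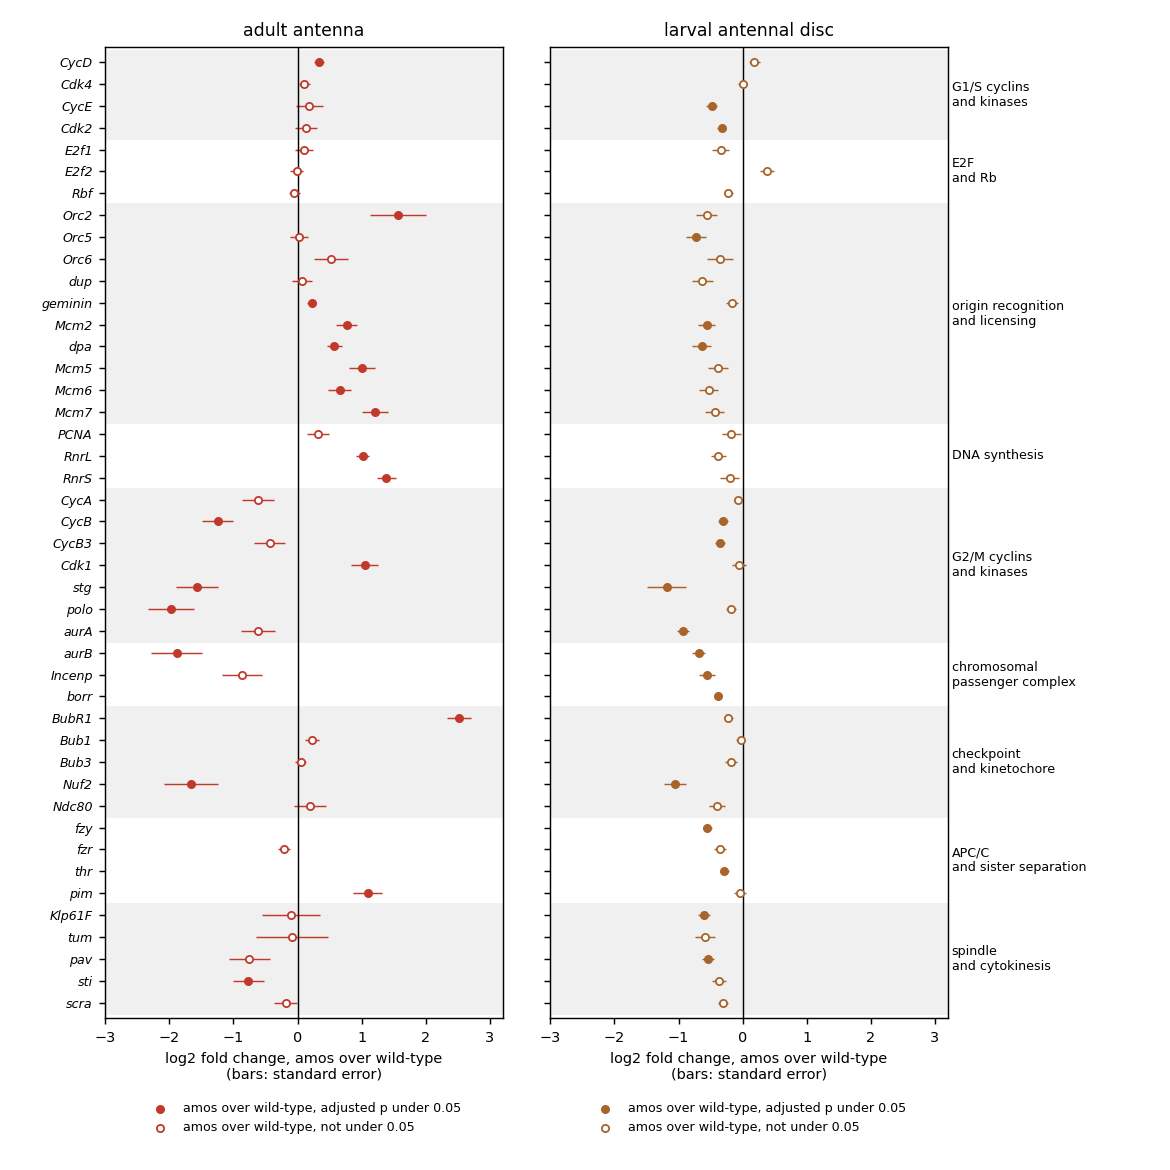
Log2 fold change of each gene in amos over wild-type, with its standard error, in adult antennae and in antennal discs (3 samples in each group), with filled points for an edgeR adjusted p under 0.05. In adults the licensing genes lie right of 0 and polo, aurB, stg and CycB left of it, and in discs 42 of 44 genes lie left of 0. borr, fzy and thr were not tested in adults.

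aurA (FBgn0000147), the Aurora kinase of the centrosome, was the only one of the 17 called under every alternative that did not ask for a 2-fold change. It was at 27.4, 29.0 and 25.3 CPM in amos discs, against 50.5, 48.2 and 59.0 CPM in wild-type discs. The groups stood clearly apart, and the log2 fold change was -0.93 (SE 0.10, edgeR adjusted p = 0.00498). The 3 listed genes of the chromosomal passenger complex were all called lower. aurB was at 50.9, 48.6 and 43.6 CPM in amos discs and 77.5, 68.9 and 86.7 CPM in wild-type discs, a change of -0.69 (SE 0.10, edgeR adjusted p = 0.0117). Incenp changed by -0.55 (SE 0.13, edgeR adjusted p = 0.0398) and borr by -0.38 (SE 0.06, edgeR adjusted p = 0.0152).

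stg was at 70.1, 97.6 and 66.0 CPM in amos discs, against 145, 130 and 263 CPM in wild-type discs, with the highest value in wild-type disc 5. Its log2 fold change was -1.19 (SE 0.30, edgeR adjusted p = 0.0479), and -0.80 without wild-type disc 5 (edgeR adjusted p = 0.0298). Nuf2 was at 15.7, 12.5 and 11.8 CPM in amos discs and 26.0, 23.8 and 34.4 CPM in wild-type discs, a change of -1.06 (SE 0.17, edgeR adjusted p = 0.0167), and of -0.89 without wild-type disc 5. The groups of both genes were separate. The further genes called lower in G2 and M were CycB (-0.31), CycB3 (-0.35), fzy (-0.55), thr (-0.28), Klp61F (-0.60) and pav (-0.54). Those called lower in G1 and S were CycE (-0.48), Cdk2 (-0.33), Orc5 (-0.73), Mcm2 (-0.56) and dpa (-0.64). Exons of Cdk2 overlap other genes over 43.9% of their length in the annotation, so its reads may be shared. CycA, Cdk1 and pim, with -0.07, -0.06 and -0.04, were among the genes not called, as were Cdk4 and Bub1 at -0.00 and -0.03.

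The count in discs depended on single libraries. It was 4, 5 and 2 without amos disc 1, 2 or 3, and 1 and 11 without wild-type disc 1 or 2. The same fits called only 111 to 272 of all genes lower, against 591 of 8909 with every sample kept. The fall was therefore not limited to the listed genes. Without wild-type disc 5, the library with high muscle markers, 19 genes were lower, beside 661 of all 9193 genes, and the median was -0.26. The summed level of the 44 genes was 5966, 5944 and 5494 CPM in amos discs, against 7250, 6760 and 8284 CPM in wild-type discs, which did not overlap, and wild-type disc 5 had the highest sum. Of the markers of the eye disc, which is cut away from the antennal disc, ey and toy moved with genotype too. The 7 markers summed to 146 to 184 CPM in amos discs and 262 to 352 CPM in wild-type discs, and 2 of the 7, ey and toy, were called lower, at -1.66 and -1.03. Most of these sums was toy, at 81.8 to 102 CPM in amos discs and 182 to 205 CPM in wild-type discs. All 7 log2 fold changes were negative, but the groups overlapped for so, eya, Optix, gl and ro. The haemocyte markers summed to 66.9 to 264 CPM in amos discs and 73.1 to 156 CPM in wild-type discs, with none called. The part of eye disc tissue, muscle or fat body in the result was not tested.

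**Figure D5:**
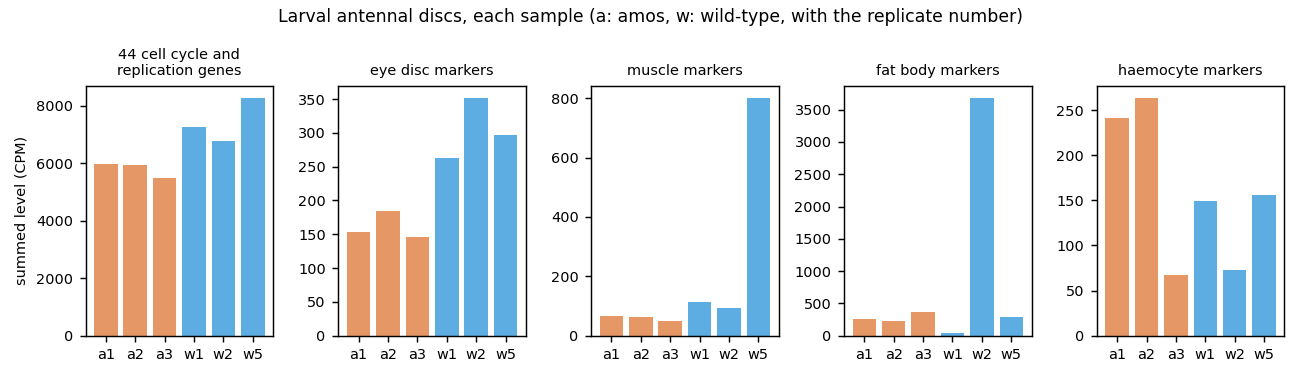
Summed level in CPM of the 44 genes and of 4 marker lists in each amos disc (a1 to a3) and wild-type disc (w1, w2 and w5), each panel on its own scale from 0. The 44 genes sum to less in each amos disc than in any wild-type disc, as do the eye disc markers, while muscle markers stand out in w5 at 802 CPM and fat body markers in w2 at 3686 CPM.

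Among pathway genes outside the list, calls in discs were mostly lower. Of 31 replication genes tested, 7 were lower and none higher, among them PolE2 (-1.36) and RfC3 (-0.81), of a polymerase and a clamp loader, and Ctf4 (-0.66). Of 44 mitotic genes, 10 were lower and 2 higher. The motor ncd changed by -0.77, Klp67A by -0.76 and the kinetochore gene Nnf1b by -1.20, while Mis12 and Sse were higher by 0.84 and 0.34. Of 9 centriole genes 4 were lower, and of 15 inhibitors and checkpoint genes only tefu, the fly ATM kinase, was lower, beside the 6.63% of all genes.

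The last comparison tested whether the amos effect, meaning the difference of amos from wild-type, itself differed between adults and discs. It used an interaction term in one fit over all 12 samples. For 15 of 44 genes the effect was higher in adults than in discs, against 14.2% of all 10319 genes, and for 3 it was lower, against 8.06%. The median difference was 0.52 on the log2 scale, against 0.09 over all genes, and without wild-type disc 5 it was 0.28, against -0.04. Among replication genes, 9 of the 10 of licensing were called, with Orc6 the exception (0.96, SE 0.33, edgeR adjusted p = 0.0598), as were RnrL and RnrS. BubR1 had the largest difference, 2.82 (SE 0.16, edgeR adjusted p = 3.24e-06), with an amos effect of 2.52 in adults and -0.23 in discs. Orc2 followed with 2.21 (SE 0.42, edgeR adjusted p = 0.004) and Mcm7 with 1.72 (SE 0.22, edgeR adjusted p = 0.000396). For polo the difference was -1.71 (SE 0.25, edgeR adjusted p = 0.000979), with an amos effect of -1.97 in adults and -0.18 in discs. stg and Nuf2, lower in amos in both tissues, had differences of -0.31 (SE 0.48) and -0.53 (SE 0.38), which did not pass the test. Of the 18 calls, 11 held under every alternative that did not ask for a 2-fold change. Leaving out a single sample gave 11 to 17 genes with a higher effect and 2 to 3 with a lower one. Over all genes those fits called 955 to 1596 higher and 559 to 1250 lower. Of the 17 genes lower in amos discs, 2 were higher in amos adults (Mcm2 and dpa) and 4 were lower there as well (CycB, stg, aurB and Nuf2).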

How the data were processed

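The counts, whole numbers of reads per gene, were deposited by the authors, 1 table for each of 12 samples. The authors made stranded mRNA libraries. The submitters' processing notes name cutadapt 1.2.1, TopHat2 2.0.9, HTSeq 0.5.4p3 and BDGP5, while the study's methods name Skewer for trimming and a release 6 genome. Reads not assigned to a gene (5 lines a table) were left out of library sizes, and made up 2.49% to 5.90% of listed reads for those outside any gene and 0.779% to 0.893% for ambiguous ones. Alignments that were not unique made up 20.5% to 27.1% in adults and 14.0% to 20.4% in discs, with the 20.4% in wild-type disc 5. Strand and overlap settings of the counting are not given in the sources used here. Members of the list, the other gene lists and the markers were chosen with earlier results of these data known. All members are named, and of other pathway genes at most the 3 with the largest log2 fold change in each direction of a comparison. Symbols were found for 15002 genes by FlyBase identifier, and exon lengths came from the Ensembl 115 annotation of BDGP6.54, from which no coordinates are given since the build differs. FPKM was computed from the counts.

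Tests used edgeR 4.0.16 in R 4.3.3: TMM normalization, filterByExpr, the quasi-likelihood F test and Benjamini-Hochberg adjustment over all genes tested, at 0.05. Each comparison was fitted on its own 2 groups, and the interaction on all 12 samples. The SE is that of the log2 fold change. Scripts were tested on simulated data. The alternatives were total count and upper quartile scaling, DESeq2 1.42.0, no filter, one fit over 12 samples, a minimum of 10 counts a sample, thinned libraries, removal of each library's length trend, leaving out each sample, the replicate number as a block, and a change over 2-fold. No replicate pair held identical values, and all differed by more than sampling noise.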

Additional observations from a re-analysis of the deposited data

Results flagged for a closer look

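For 18 genes the amos effect differed between adult antennae and antennal discs by the interaction test of edgeR (adjusted p under 0.05). The differences below are the amos effect in adults less that in discs, on the log2 scale, with 3 samples in each of the 4 groups.

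It was positive for 15 genes. In G1 and S phase control it was 0.74 for CycE. In origin recognition and licensing it was 2.21 for Orc2, 0.82 for Orc5, 0.77 for dup, 0.46 for geminin, 1.41 for Mcm2, 1.29 for dpa, 1.46 for Mcm5, 1.26 for Mcm6 and 1.72 for Mcm7. The ribonucleotide reductase subunits had 1.47 for RnrL and 1.66 for RnrS. Among mitotic genes it was 1.18 for Cdk1, 2.82 for BubR1 and 1.21 for pim.

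It was negative for 3 genes, all of them mitotic: -0.87 for CycB, -1.71 for polo and -1.14 for aurB. In adults these 3 genes were at or under 1.87 CPM in every sample. CycE, Orc5, dup, geminin, Mcm6, CycB and aurB lost the call under at least 1 alternative other than a 2-fold requirement.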

How the results depend on the processing

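No member changed direction under any alternative while called. In discs, the count called between amos and wild-type was 17, but 30 by DESeq2, 2 with a change over 2-fold required as well, and 1 to 19 when a single sample was left out. Over all genes, 591 were called lower, but 1143 by DESeq2 and 111 to 661 when a single sample was left out. The cause was not tested. In adults, one fit over all 12 samples called 14 higher and 10 lower, where the fit on adults called 13 and 6. Over all genes, the former called 2391 of 10319 higher and 1583 lower, and the latter 2203 of 9724 higher and 2370 lower. With scaling by total counts the median of all genes moved to -0.28 (amos) and -0.27 (wild-type) between adults and discs. Of the 44 calls between adults and discs, 42 in amos and 43 in wild-type held under every alternative that did not ask for a 2-fold change, of the 19 between adults 13, of the 17 between discs 1, and of the 18 differences of the amos effect 11.

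Same-numbered samples did not deviate together (correlations of 0.111, 0.019 and 0.034 between amos adults and discs, -0.199 and -0.146 between discs, and -0.108 between wild-type adult 5 and disc 5). With the replicate number as a block, 44 members were called between amos adults and discs and 13 between discs, where only numbers 1 and 2 occur in both genotypes. Over all genes, the blocked fit called 4379 of 9985 higher and 4195 lower between amos adults and discs. Between discs it called 768 of 8909 higher and 711 lower. For the difference of the amos effect, the wild-type part of the blocked fit rests on number 5 alone. Its median over the 44 members was 0.72. No paired analysis was possible for wild-type adults against discs or amos against wild-type adults because they share fewer than 2 numbers. Depth limits borr, fzy and thr in adults, where levels reached down to 0.0199 CPM, 1 read.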
